A study of Citrus trifoliata with 6 samples.

Results

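Chitinases and beta-1,3-glucanases are 2 enzyme families of the plant cell wall and of plant defence. They had 44 members in the data from lateral roots of Poncirus trifoliata with and without the arbuscular mycorrhizal fungus Glomus versiforme (Gv). A gene was a member when the text of its best protein match named a chitinase, an endochitinase, a glucan endo-1,3-beta-glucosidase or a beta-1,3-glucanase, which gave 42 of the 22589 genes with a read. The study's text gives 4 chitinase genes as raised in these same libraries (Cs1g05710, orange1.1t00435, Cs8g17580 and Cs9g14710). They were included by identifier, and 2 of them (Cs1g05710 and Cs8g17580) have a match text that names neither enzyme. The rise of these 4 genes is therefore not independent evidence, and counts are given with and without them. The members comprised 16 chitinases and 28 glucanases.

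Seedlings were grown in sterile quartz sand on a nutrient solution with 20 μM phosphorus in both groups. The Gv group had received an inoculum of about 3000 spores per pot, and the control group none. Non-woody lateral roots were taken at 3 months post-inoculation, with 3 biological replicates a group, each pooled from at least 9 plants. RNA came from whole roots in bulk, so that more colonized cells and more transcript per colonized cell cannot be told apart.

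Chitin is the main structural polymer of the fungal wall, and chitinases cut it into chitooligosaccharides, which plants perceive as signals of microbes and of symbiotic fungi. Plant chitinases are sorted into classes by sequence, and some chitinase-like proteins are known for a part in cellulose deposition instead of chitin cleavage. Beta-1,3-glucanases cut beta-1,3-glucan, which occurs in the walls of many fungi and, as callose, around plasmodesmata and in newly laid plant walls. In Medicago truncatula, chitinase genes are among those linked to the breakdown of arbuscules, the branched fungal structures inside root cortex cells.

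Only Cs1g05710, which the study calls Chit2, has sequence in the sources used here. The designed primers with which the study amplified its promoter from P. trifoliata are shown because this gene had reads in every Gv library and none in control; both are written 5′ to 3′ and no letters are marked.
pPtrChit2F: tcctttctctctatcttagcctcttacg
pPtrChit2R: tttttttccctccttgttcaagttg

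Reads on genes ranged from 4.34 M to 4.71 M over the libraries, and 4.21% to 6.19% of these fell on the 10 highest genes. Of the 44 members, 36 had reads in all 6 libraries and 5 had fewer than 10 reads in total. The filter on low counts kept 33 members for the test (14 chitinases and 19 glucanases). Levels are given as RPKM, the reads of a gene scaled by its listed length and by all reads on genes in the library. The listed lengths may span more than the transcript, since reads covered at most 34.1% of the length of the well expressed Cs4g12960, so comparisons of levels between genes are per listed length only. Ratios between libraries of the same replicate number, or between replicates of a group, were taken from counts per library total scaled by edgeR's TMM factors, and differ slightly from ratios of the RPKM. Deviations of libraries with the same replicate number from their group means correlated, most for number 3. The check could not decide whether numbers 1 and 2 are pairs. Each result is also given with the replicate number as a block where that changes it, which treats all numbers as pairs. The root label was set against marker genes: the 7 chlorophyll a-b binding genes summed to between 6.37 and 23.6 RPKM over the 6 libraries, and the 3 Casparian strip genes, of the root endodermis, to between 2.36 and 9.72 RPKM. The 2 genes for the rubisco small subunit, a leaf marker, summed to between 94.7 and 139 RPKM, above the Casparian strip genes in every library. Most of that sum came from 1 gene, Cs4g03580, with 90.8 to 137 RPKM, while Cs6g18680 had 1.31 to 7.13 RPKM. Both are named after their values were seen.

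A few chitinases were higher in Gv roots by one test or another, and for most members the groups overlapped. With edgeR's quasi-likelihood test without the block, 0 of the 33 tested members were called (adjusted p under 0.05 and at least a 2-fold change), as for 0.0% of all 16281 genes. At an unadjusted p under 0.05, 5 members were higher in Gv, all of them chitinases, against 3.0% of all genes, and 1 glucanase was lower, against 1.57%. All but 1 of the 5 were among the 4 genes given by the study. With the block, 3 chitinases were called higher, against 0.958% of all genes, and 0 members were called lower, against 0.0369%. The 3 were Cs1g05710, orange1.1t00435 and the class I chitinase orange1.1t01780. DESeq2 also called 3 members higher, against 1.15%, namely Cs1g05710, orange1.1t00435 and Cs8g17580. Without the 4 genes given by the study, 29 tested members remained, of which the block called 1, DESeq2 called 0 and the test without the block called 0. Among these 29, the unblocked p was under 0.05 for 2, 1 higher and 1 lower in Gv, which is near the shares over all genes.

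**Figure D1:**
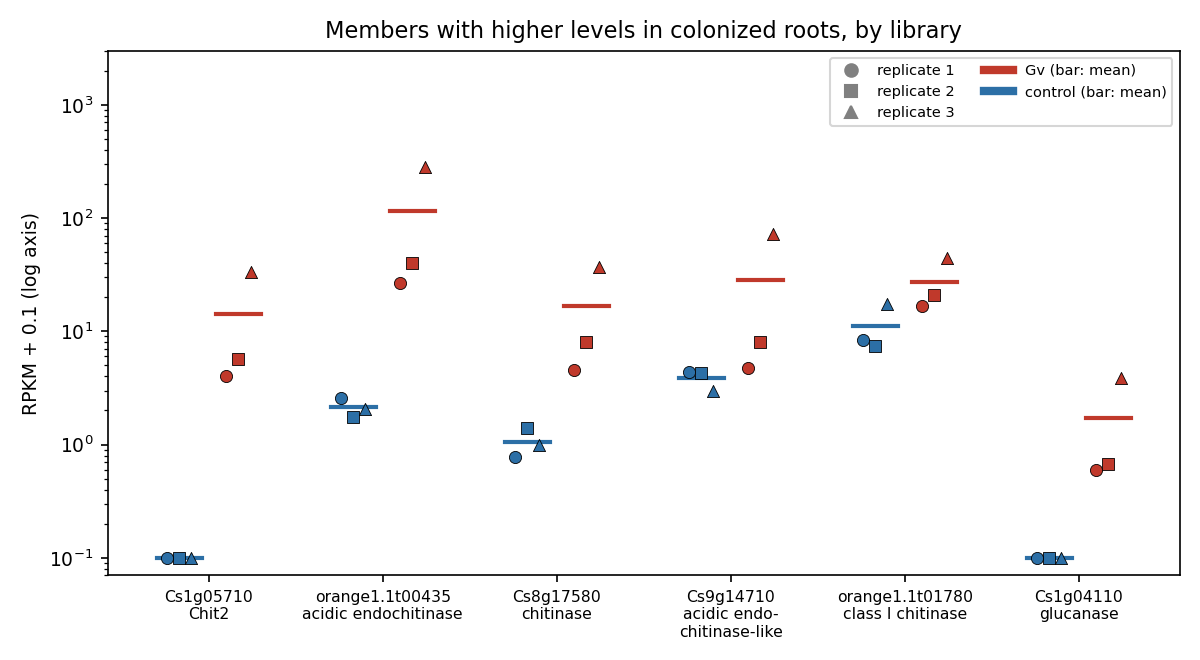
RPKM + 0.1 on a log axis (vertical) for 6 members (horizontal), with 1 point per library, shaped by replicate number, and a bar at the group mean of the control (blue) and Gv (red) libraries. Cs1g05710 and Cs1g04110 had 0 reads in all 3 control libraries, and Gv replicate 3 is the highest Gv library for each of the 6 genes.

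Cs1g05710 (Chit2) had 3.92, 5.58 and 32.97 RPKM in Gv replicates 1, 2 and 3 and 0 reads in every control library. The reads covered 50.0%, 54.9% and 66.5% of its listed length in the 3 Gv libraries, so they were spread along the gene and not piled on a short stretch. The groups did not overlap, and the fold was at least 81.2 when set against 3 reads over the control group. That bound rests mostly on Gv replicate 3, which held 183 reads beside 22 and 33 in replicates 1 and 2. With edgeR the adjusted p was 0.559 without the block and 0.0309 with it, and it ranged between 0.0198 and 0.0551 when each replicate number was left out in turn, with the call kept in 2 of the 3 fits.

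The gene orange1.1t00435 matches an acidic endochitinase of grapevine, with no class given in the match text. Its levels were 26.4, 39.8 and 282 RPKM in Gv and 2.47, 1.66 and 1.96 RPKM in control, and no Gv library fell as low as any control. The ratio of the Gv to the control library of the same number was 11.0, 22.5 and 147 for numbers 1, 2 and 3. The spread thus lay in the Gv group, where replicate 3 was 8.40 times the mean of replicates 1 and 2, while control replicate 3 was 0.904 times the mean of its own group's other two. With all libraries and without the block, the edgeR adjusted p was 0.360. The log2 fold change with the block was 5.44 (95% interval 3.83 to 7.04, edgeR adjusted p 0.0298), and the call was lost without number 2 (adjusted p 0.0571). Without Gv replicate 3 and without the block, the log2 fold change was 4.01 (edgeR adjusted p 0.0102). This gene was the only member called without that library, where 0.41% of all genes were called higher.

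Cs8g17580, whose match is a hypothetical protein of peach, had 19, 36 and 157 reads in Gv against 3, 6 and 4 in control. In RPKM this was 4.43, 7.98 and 37.1 against 0.682, 1.31 and 0.899, again with no overlap. The ratios within numbers were 6.68, 5.74 and 41.9. The log2 fold change was 4.03 (SE 0.95) without the block and 3.82 (SE 0.58) with it. Without Gv replicate 3 the unblocked value was 2.64. The gene passed the threshold in DESeq2 (adjusted p 0.00053) but not in edgeR with the block (adjusted p 0.0693).

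Cs9g14710, which matches an acidic endochitinase-like protein of grapevine, was the least even of the 4. It had 4.68, 7.995 and 72.4 RPKM in Gv and 4.25, 4.22 and 2.85 RPKM in control. The ratio was 1.13 in number 1, 1.78 in number 2 and 25.8 in number 3, so nearly all of the difference lay in Gv replicate 3. Its log2 fold change of 2.87 without the block was 0.74 without that library, and it was called neither with the block (adjusted p 0.594) nor by DESeq2 (adjusted p 0.118).

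These 4 genes together held 39.4, 61.3 and 425 RPKM in Gv replicates 1, 2 and 3 and 7.40, 7.18 and 5.71 RPKM in control. The library with the highest sum was also the one in which 7 genes of the arbuscule phase named in the study's text, phosphate transporters and cysteine proteases among them, were highest. Their summed level was 215, 247 and 1617 RPKM in Gv and between 0.177 and 0.908 RPKM in control. Of these 7 genes, 6 were tested. With the block edgeR called 6 higher, and without the block and without Gv replicate 3 it called 4. DESeq2 called 5 higher and gave no adjusted p for Cs3g16120. The study's text gives these genes as raised in these same libraries, so their calls are not independent evidence. Whether the amount of arbuscules in the roots sampled plays a part in the chitinase values was not tested.

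The class I chitinase orange1.1t01780 behaved differently and is not among the 4 genes of the study. Class I chitinases carry a chitin-binding domain beside the catalytic one. It had 91, 120 and 239 reads in the Gv libraries and 46, 43 and 98 in the controls, or 16.7, 20.9 and 44.3 RPKM against 8.21, 7.35 and 17.3 RPKM. Replicate 3 was the highest library in both groups, 2.32 times the mean of the other two in Gv and 2.11 times in control, so the groups overlapped in RPKM while Gv was above control in every number. The ratios within numbers were 2.09, 2.67 and 2.60. The log2 fold change was 1.31 (95% interval 0.19 to 2.43, edgeR adjusted p 0.913) without the block and 1.29 (0.92 to 1.66, adjusted p 0.0267) with it. When any of the 3 numbers was left out, the blocked log2 fold change stayed between 1.23 and 1.39, but the edgeR adjusted p was between 0.0644 and 0.109. The call was thus lost in each of these fits, which have fewer libraries, and the cause of the loss was not tested. DESeq2 without the block gave an adjusted p of 0.436.

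**Figure D2:**
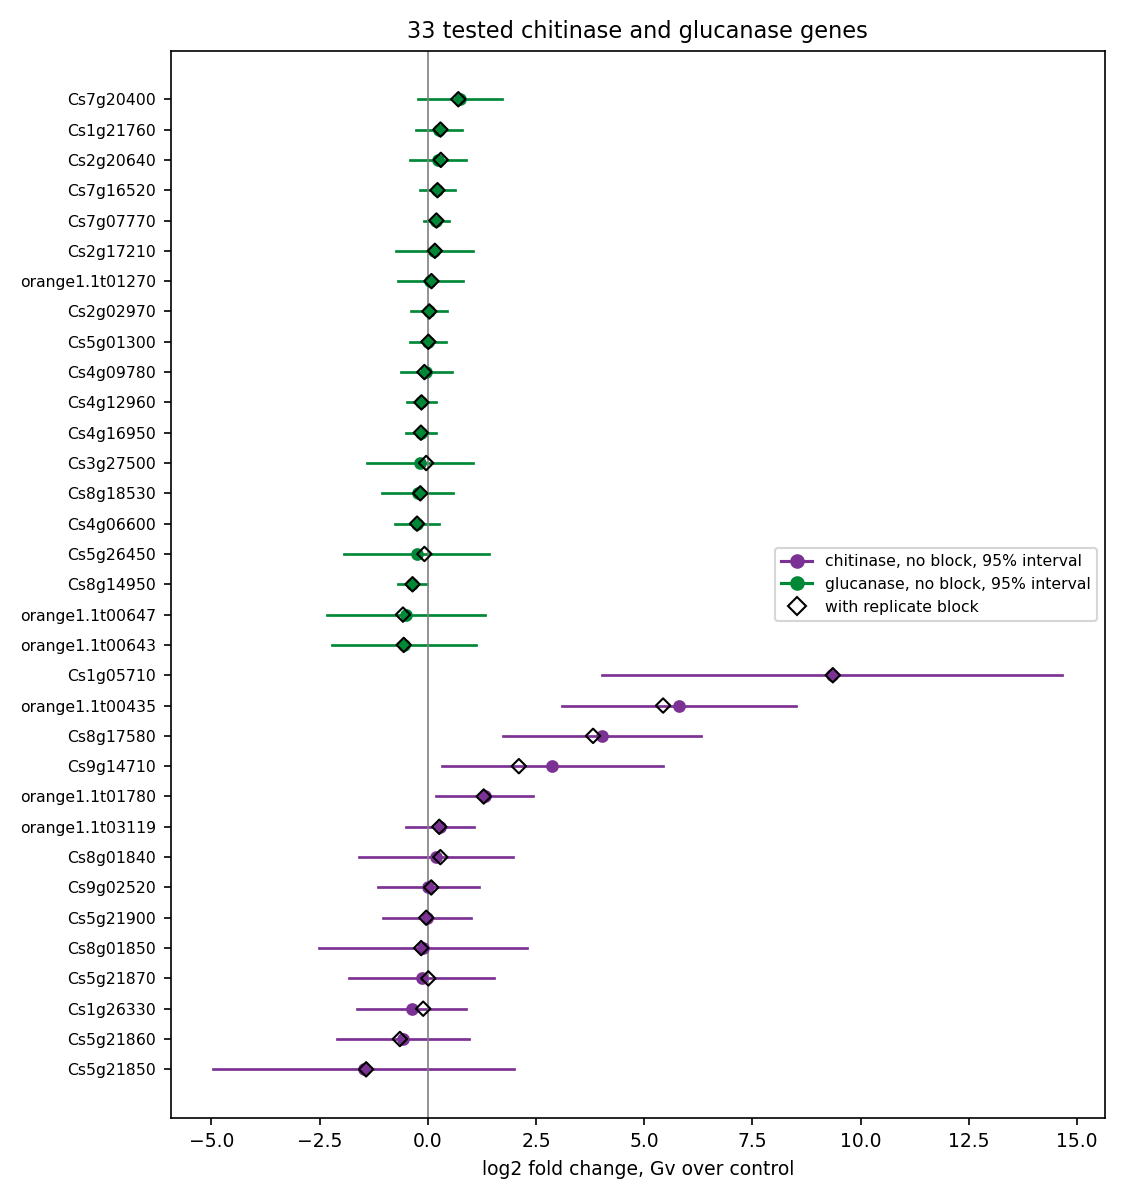
Log2 fold change of Gv over control (horizontal) for the 33 tested members (vertical), with filled points and 95% intervals from edgeR without the block, purple for chitinases and green for glucanases, and open diamonds from the fit with the block. The 19 glucanases lie between -0.55 and 0.74, while 5 chitinases lie above 1, and the value of Cs1g05710 is no bound because its control reads are 0.

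The other 9 tested chitinases lay on both sides of 0 or had wide intervals. A group of 5 genes shares the match chitinase CHI1 of Citrus sinensis, 3 of them with consecutive identifiers (Cs5g21850, Cs5g21860 and Cs5g21870). Since the authors counted only reads with 1 best place in the genome, reads from stretches that such copies share would be missing, and their levels are uncertain. Cs5g21850 had 1, 9 and 64 reads in the Gv libraries and 12, 11 and 195 in the controls. It was lower in Gv within each number and was the member with the lowest log2 fold change, -1.48 (95% interval -4.96 to 1.99) without the block and -1.42 (-2.40 to -0.45, edgeR unadjusted p 0.0125, adjusted p 0.341) with it. Replicate 3 held most of its reads in both groups, and without control replicate 3 the unblocked value was 1.12.

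Its neighbour Cs5g21860 went another way, with 15, 16 and 56 reads in Gv against 66, 43 and 23 in control. Gv was thus below control in numbers 1 and 2 (ratios 0.240 and 0.356) and above it in number 3 (ratio 2.60), and the log2 fold change was -0.57 (95% interval -2.09 to 0.96). The third gene, Cs5g21870, had 22, 15 and 12 reads in the Gv libraries and 35, 16 and 4 in the controls, with overlapping groups. It is named here because of its place beside the others, after its values were seen. A further gene with this match, orange1.1t03119, was even across libraries, with 29, 31 and 51 reads in the Gv libraries and 23, 32 and 39 in the controls (log2 fold change 0.28, 95% interval -0.50 to 1.06). Genes with the same match thus had unlike profiles over the 6 libraries.

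Among the 16 chitinases chosen by match text or identifier, 2 genes held most of the RPKM in control. Cs1g26330, with a chitinase of Citrus unshiu as its match, had 171, 346 and 76.4 RPKM in control and 152, 181 and 137 RPKM in Gv. Cs9g02520, which matches a chitinase-like protein of cotton, had 143, 93.3 and 44.6 RPKM in control and 144, 72.7 and 69.1 RPKM in Gv. In cotton and Arabidopsis, proteins of this type have been linked to cellulose deposition. Cs1g26330 lay above Cs9g02520 in every library, but their control ranges overlapped (198 ± 137 and 93.5 ± 49.0 RPKM, SD, n = 3). Neither differed between the groups beyond its spread, with log2 fold changes of -0.37 (95% interval -1.63 to 0.89) and 0.015 (-1.15 to 1.18). The next gene, orange1.1t01780, had 11.0 ± 5.51 RPKM in control (SD, n = 3).

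Cs1g26330 alone made up 57.1% of the summed level of these 16 chitinases in control and 32.4% in Gv, per listed length. The summed level of the 16 chitinases was 374, 359 and 718 RPKM in Gv and 362, 484 and 195 RPKM in control, so the groups overlapped. The log2 ratio of the group means was 0.48, and it was -0.14 without the 4 genes given by the study. Apart from these 4 genes, the sums were 335, 298 and 294 RPKM in Gv and 354, 476 and 189 RPKM in control.

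**Figure D3:**
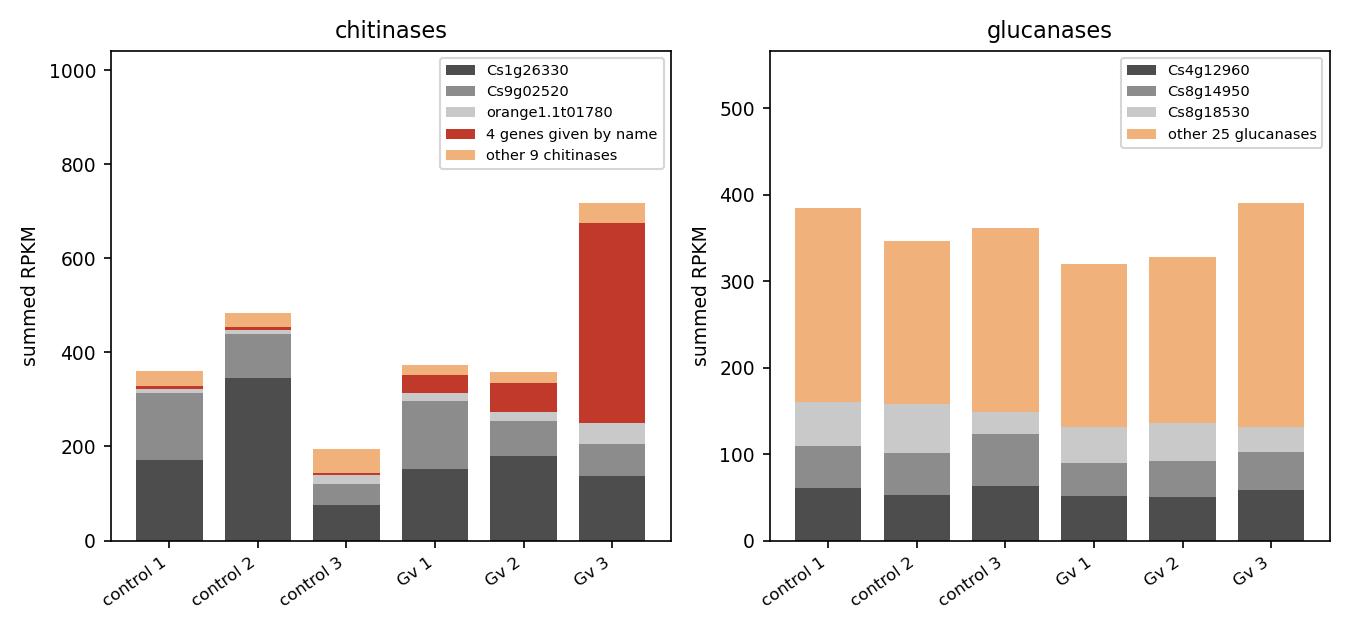
Summed RPKM per library (vertical, from 0) of the 16 chitinases (left) and the 28 glucanases (right), with the 3 highest genes of each family in grey, the 4 chitinases given by name in the study in red and the rest in orange. The red part is 425 RPKM in Gv replicate 3 and at most 61.3 RPKM in the other libraries, while the glucanase sums stay between 319 and 390 RPKM.

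The remaining chitinases were low. Cs8g01840 had between 4 and 22 reads in a library, with replicate 3 the highest in both groups. The member with an acidic class II chitinase as its match, Cs8g01810, had 1 read over the 6 libraries, and it is named after its values were seen. This gene could thus not be compared at this depth. Class was read from the match text alone, which gives none for at least 8 of the chitinases, so class II genes may be among those.

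None of the 19 tested glucanases was called by edgeR, with or without the block, or by DESeq2. All 19 had a log2 fold change within 1 of 0, from -0.55 to 0.74, as did 96.3% of all genes, and their intervals reached from -2.32 to 1.71 at the widest ends. The summed level of the 28 glucanases was 319, 328 and 390 RPKM in Gv and 385, 347 and 362 RPKM in control, a log2 ratio of means of -0.075. The spread among libraries was small beside that of the chitinases. The family was also shared among more genes, as the 3 highest held 42.7% of the control sum, against 87.2% for the 3 highest chitinases.

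The highest glucanase by match text was Cs4g12960, whose match is numbered 13 in grapevine, with 51.4, 50.8 and 58.4 RPKM in Gv and 61.2, 52.2 and 63.3 RPKM in control. Its KEGG Orthology entry is K05759, while 12 of the glucanases carry K14489 and other members carry further entries or none. These entries were not used to decide which members are glucanases. With at most 34.1% of its length covered, its reads may not be those of a glucanase, and they are included in the sums above. Cs4g12960 was lower in Gv within each number, by ratios of 0.863, 0.914 and 0.937, and its log2 fold change was -0.15 (95% interval -0.48 to 0.18). Cs8g18530 had 42.5, 43.4 and 28.8 RPKM in Gv and 50.5, 56.7 and 25.7 RPKM in control, with overlapping groups. Cs2g20640 had 43.0, 48.1 and 42.4 RPKM in Gv and 50.6, 37.2 and 24.1 RPKM in control, which also overlapped. Neighbours in the control order of the 4 highest glucanases (58.9 ± 5.85, 52.2 ± 6.23, 44.3 ± 16.4 and 37.3 ± 13.2 RPKM, SD, n = 3, for Cs4g12960, Cs8g14950, Cs8g18530 and Cs2g20640) had overlapping ranges.

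Cs8g14950 was the only tested member with every Gv library below every control library, a pattern of 3.26% of all genes. It had 631, 724 and 730 reads in the Gv libraries and 826, 877 and 1029 in the controls, or 37.8, 41.2 and 44.2 RPKM against 48.2, 49.0 and 59.4 RPKM. The ratios within numbers were 0.806, 0.790 and 0.757. The log2 fold change was -0.36 (95% interval -0.68 to -0.028, edgeR unadjusted p 0.0374), which did not pass the threshold after adjustment, without the block (adjusted p 1) or with it (adjusted p 0.362). In the other direction, 5 tested members had every Gv library above every control library in RPKM, against 5.35% of all genes. Apart from the 4 chitinases given by the study, this held for 1 of 29 tested members, or 3.45%. It was the glucanase Cs7g07770, with 366, 378 and 390 reads in the Gv libraries and 351, 342 and 319 in the controls (log2 fold change 0.20, 95% interval -0.085 to 0.48), which is named after its values were seen.

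The glucanase by match text with the largest fold change among those tested was Cs7g20400, whose KEGG Orthology entry is K06133. It had 2.17, 2.996 and 5.58 RPKM in Gv and 2.06, 1.43 and 2.90 RPKM in control. Its log2 fold change was 0.74 (95% interval -0.23 to 1.71), and it was not called with the block (edgeR adjusted p 0.461). Next by fold change was Cs1g21760, with 9.69, 8.84 and 9.42 RPKM in Gv and 10.2, 6.47 and 6.40 RPKM in control (log2 fold change 0.27, 95% interval -0.26 to 0.80).

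Cs1g04110 was the only glucanase with reads in every Gv library and in no control library. It had 5, 6 and 37 reads in Gv, or 0.499, 0.569 and 3.74 RPKM, and was at least 16.4-fold higher when set against 3 reads over the control group. The gene did not pass the filter on low counts. With all genes kept, DESeq2 gave an adjusted p of 0.0075 and edgeR with the block 0.111. With all genes kept, the block called 4 members higher, against 0.912% of all genes, all of them chitinases (Cs1g05710, orange1.1t00435, orange1.1t01780 and Cs8g17580). As in the 4 chitinases of the study, Gv replicate 3 stood out, at 6.87 times the mean of Gv replicates 1 and 2.

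A set of 5 beta-1,3-glucanase genes lie close to each other by identifier (orange1.1t00633, orange1.1t00634, orange1.1t00635, orange1.1t00643 and orange1.1t00647), of which 2 passed the filter. The higher of these, orange1.1t00647, had 71, 92 and 342 reads in the Gv libraries and 134, 128 and 481 in the controls. The groups overlapped because replicate 3 was high in both, while Gv lay below control in each number, with ratios of 0.559, 0.687 and 0.759. The log2 fold change was -0.50 (95% interval -2.32 to 1.33) without the block and -0.57 (-0.91 to -0.24, edgeR unadjusted p 0.0061, adjusted p 0.235) with it.

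The second, orange1.1t00643, had 18, 24 and 71 reads in the Gv libraries and 34, 29 and 109 in the controls, with ratios of 0.558, 0.791 and 0.695 and a blocked log2 fold change of -0.56 (95% interval -1.06 to -0.054, adjusted p 0.505). Its reads covered at most 10.9% of its listed length, so that they came from a short stretch. The gene orange1.1t00633, named after its values were seen, had 3, 2 and 20 reads in the Gv libraries and 8, 5 and 39 in the controls, and its coverage was at most 6.91%. The neighbour orange1.1t00634, likewise named afterwards, did not share the direction, with 2, 5 and 22 reads in the Gv libraries and 5, 1 and 14 in the controls. Only uniquely placed reads were counted, so levels of such similar neighbours are uncertain.

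**Figure D4:**
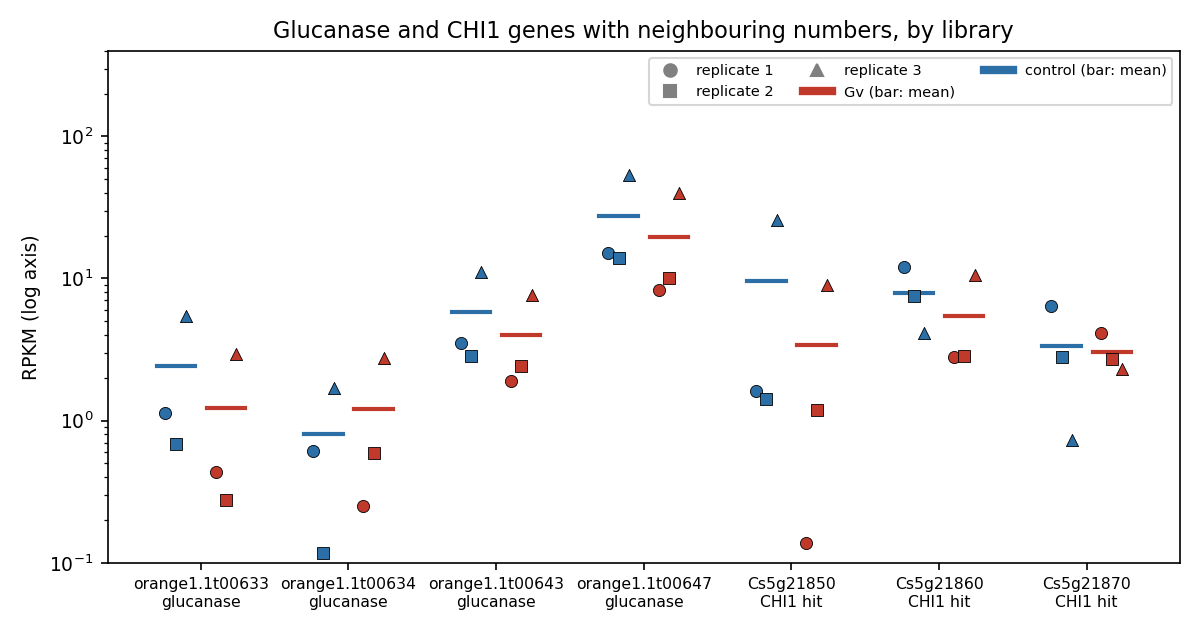
RPKM on a log axis (vertical) of 4 glucanase genes and 3 chitinase genes with neighbouring identifiers (horizontal), with 1 point per library, shaped by replicate number, and a bar at the group mean of control (blue) and Gv (red). For orange1.1t00633, orange1.1t00643, orange1.1t00647 and Cs5g21850 each Gv point lies below the control point of the same shape, and the replicate 3 points are the highest in both groups.

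Within numbers, Gv lay above control in all 3 numbers for 8 tested members, against 16.1% of all genes, and below it in all 3 for 7, against 13.1%. As shares of the 33 tested members these were 24.2% and 21.2%. Without the 4 genes of the study 4 of 29 were higher (13.8%) and 7 were lower (24.1%). Of the 14 tested chitinases 5 were higher in all 3 numbers and 1 was lower, and without those 4 genes 1 of 10 was higher and 1 was lower. Of the 19 glucanases 3 were higher and 6 were lower. Over the 33 tested members the median log2 fold change was 0.0034 with the 4 genes of the study and -0.031 over the 29 others, beside -0.0097 over all genes.

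Replicate 3 differed from replicates 1 and 2 in both groups for part of the family. For 6 tested members it was at least 2-fold the mean of the other two in both groups, 18.2% of those tested, against 2.17% of all genes. They were the chitinases Cs5g21850, Cs8g01840, Cs8g01850 and orange1.1t01780 and the glucanases orange1.1t00643 and orange1.1t00647. The ratio was 13.5 in Gv and 16.3 in control for Cs5g21850, and 6.01 and 4.77 for the acidic class I chitinase Cs8g01850. The latter had 10, 4 and 42 reads in the Gv libraries and 5, 13 and 45 in the controls, and is named after its values were seen. None of the 4 chitinases of the study was in this set, since their control libraries did not rise in replicate 3.

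**Figure D5:**
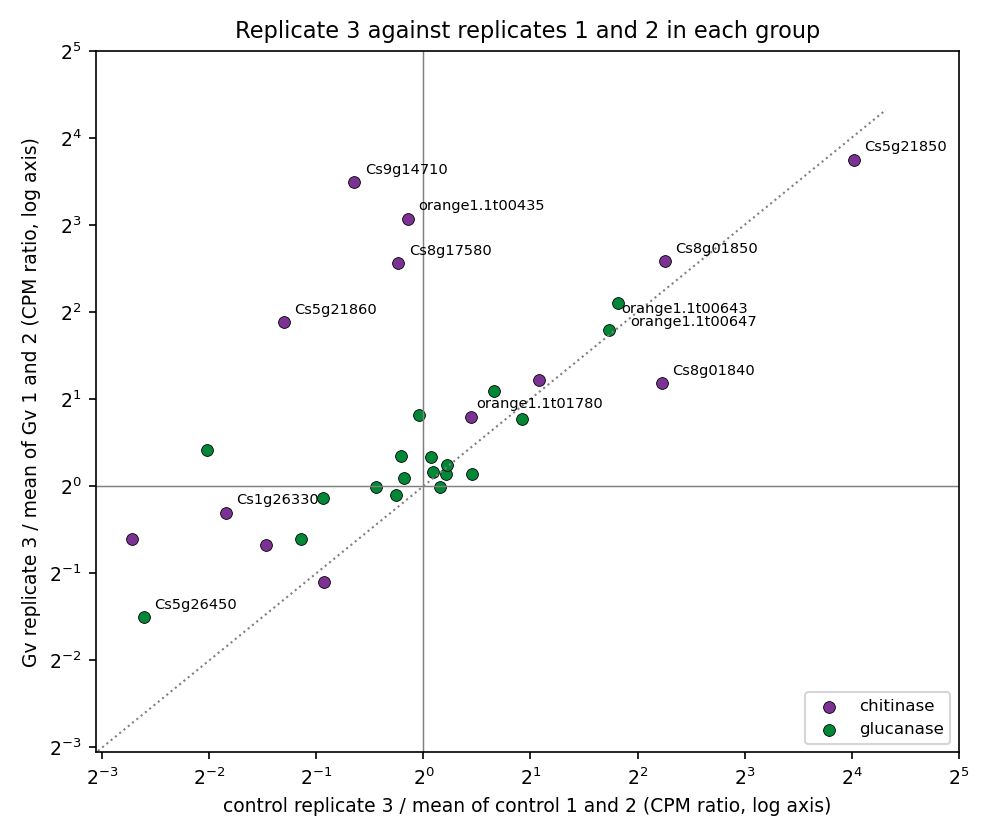
TMM-scaled CPM of replicate 3 over the mean of replicates 1 and 2, in control (horizontal) and in Gv (vertical), both on log axes, for 32 tested members, purple for chitinases and green for glucanases (Cs1g05710 is left out because its control reads are 0). The dotted line marks equal ratios, and orange1.1t00435, Cs8g17580 and Cs9g14710 lie far above it while Cs5g21850, Cs8g01850, orange1.1t00643 and orange1.1t00647 lie near it at high ratios in both groups.

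Other members were low in replicate 3. Cs5g26450, a glucanase named after its values were seen, had 274, 292 and 98 reads in the Gv libraries and 323, 416 and 63 in the controls. The chitinase-like gene Cs9g02520 was at 0.624 times the mean of replicates 1 and 2 in Gv replicate 3 and at 0.361 times in control replicate 3. The summed level of 7 genes found by xylem terms in their match, cellulose synthase A catalytic subunit 7 among them, was 393, 347 and 235 RPKM in Gv and 406, 347 and 182 RPKM in control. The sum was lowest in replicate 3 of both groups, and most of that fall lay in 1 gene, Cs3g15800, a xylem serine proteinase by its match, with 186, 166 and 55.5 RPKM in Gv and 163, 157 and 22.1 RPKM in control. Of the 6 tested genes of this list only Cs3g15800 was at most 0.5 times the mean of the other two in replicate 3 of both groups. The part of this list in the values of the members was not tested. In bulk roots, fewer cells with Cs3g15800 transcript and less of this transcript per cell cannot be told apart.

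Few other genes of these pathways were found by words in the match text, a search that can miss genes whose match gives no such name. The single LysM gene found, of a protein family that binds chitin-related polymers, summed to between 10.7 and 12.1 RPKM in Gv and between 9.84 and 12.6 RPKM in control. The 2 callose synthase genes, which make the polymer that plant beta-1,3-glucanases cut, summed to between 52.4 and 58.4 RPKM in Gv and between 47.3 and 68.7 RPKM in control. Of the 12 genes for PR-1, thaumatin-like or osmotin proteins, classes made in defence, 4 passed the filter, and the 12 summed to 96.7, 82.9 and 83.2 RPKM in Gv and 128, 103 and 49.7 RPKM in control. None of these 7 tested genes was called in either direction by edgeR with or without the block or by DESeq2, and none had an unadjusted p under 0.05 in edgeR with or without the block. With so few genes, counts of 0 are also what the shares over all genes would give.

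A further 18 genes carry the KEGG Orthology entry K01183 for chitinase although their match text names no chitinase in the words used to choose the members. Of these, 7 passed the filter, 0 were called by edgeR with or without the block or by DESeq2, and 0 had an unadjusted p under 0.05 in edgeR. Their summed level was between 309 and 379 RPKM in Gv and between 271 and 482 RPKM in control. Most of it came from Cs5g24680, named after its values were seen, with 249, 259 and 171 RPKM in Gv and 364, 286 and 159 RPKM in control. This gene, which the words used here did not find, lay above Cs1g26330 in every library but control replicate 2 (286 against 346 RPKM). Its groups overlapped.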

How the data were processed

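For each library the authors filtered the reads, aligned them with SOAPaligner/SOAP2 (2 mismatches allowed) to the sweet orange (Citrus sinensis) genome and deposited the count of uniquely aligned reads per gene, not normalized. They also deposited RPKM, gene length and coverage, the percent of a gene's length with reads. Aligner and annotation versions are not given in the sources used here, nor is strand, so reads of overlapping genes on opposite strands cannot be told apart. A gene not listed in a library was taken as 0 reads.

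Counts were tested on the whole table with edgeR 4.0.16 in R 4.3.3 (TMM factors, its expression filter, quasi-likelihood test, 16281 genes, Benjamini-Hochberg adjustment), and with DESeq2 1.42.0 and, on log2(RPKM + 0.5), limma 3.58.1 as alternatives. Calls needed an adjusted p under 0.05 and at least a 2-fold change. NOISeq, the study's tool, was not run. Scripts were tested on simulated data.

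To check whether replicate numbers pair Gv with control libraries, each library's deviation from its group mean was correlated over genes, which are no independent replicates. The correlation was 0.357, 0.481 and 0.613 for numbers 1, 2 and 3, each over 0.1, and the numbers were treated as pairs. Deviations from a group mean cancel out within the group, so a deviation shared by number 3 alone would also make numbers 1 and 2 correlate. The check therefore could not decide whether numbers 1 and 2 are pairs, and the blocked fits and ratios within numbers treat them so. The labels do not say what a number marks. Gv replicate 1 with control replicate 2 gave 0.429, above its value with control replicate 1.

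The members and lists were chosen with earlier results of these data known. Named are the 4 genes of the study, members called by any fit, the 3 chitinases and 3 glucanases with the largest and the lowest fold changes, and those with the highest control levels; Cs1g04110 was included for its reads in Gv alone. Any other gene is said to be named after its values were seen. A fold against a group at 0 is a lower bound, set against 3 reads over the group, and covers counting error only. DESeq2 gave no adjusted p for 1 member, Cs5g21850.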

Additional observations from a re-analysis of the deposited data

How the results depend on the processing

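The replicate block gave 3 members called higher where the test without it gave 0, and 2, 1 and 1 without number 1, 2 and 3; 156 of all genes were then called higher and 6 lower, against 0 and 0, with 147, 147 and 149 higher and 2, 4 and 51 lower when number 1, 2 or 3 was left out. Leaving out 1 library without the block gave between 0 and 1 member and between 0 and 68 genes called higher, with the upper ends, and 1 gene called lower, without Gv replicate 3. DESeq2 gave 3 members, 187 genes higher and 6 lower. With limma, 72 genes and 1 member were called higher at a pseudocount of 0.1, and 21 genes and 0 members at 0.5. With no filter, chosen after seeing the data, the block gave 4 members, 206 genes higher and 15 lower, and DESeq2 4 members, 230 genes higher and 7 lower. No alternative called a member lower. The log2 ratio of the summed chitinase level was -0.14 without the 4 genes of the study, against 0.48 with them.

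For the 19 members named by rule and tested, 16 of 360 alternatives turned the sign. These lay in 10 members with a log2 fold change of at most 1.48 in size, none of them called. The other tested members are not in this count, and some of them turned sign too, such as Cs8g01850 (from -1.52 to 1.07 without 1 library). Without 1 library, the values ranged from -0.037 to 0.45 for orange1.1t03119, from -0.32 to 1.33 for Cs8g01840, from -0.43 to 0.43 for Cs9g02520, from -0.76 to 0.35 for Cs1g26330, from -3.79 to 1.12 for Cs5g21850, from -0.0064 to 0.50 for Cs2g20640, from -1.57 to 0.39 for orange1.1t00647, from -1.41 to 0.28 for orange1.1t00643 and from -0.52 to 0.019 for Cs8g18530. With the block and without 1 number the sign turned for Cs8g01840 (-0.076) and Cs5g21860 (0.037) without number 1, Cs1g26330 (0.36) without number 2 and Cs9g02520 (-0.20) without number 3. The cause of these turns was not tested. The 11 untested members had too few reads for the filter, which limits what can be said of the 1 gene matched to a class II chitinase and of most of the neighbouring glucanases.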
